A study of Mus musculus with 18 samples.

Results

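The small leucine-rich proteoglycans described here are 9 genes, Dcn, Bgn, Lum, Fmod, Prelp, Ogn, Aspn, Podn and Ecm2. They were chosen by symbol, through their Ensembl identifiers, among 53342 identifiers in the count tables, and all 9 were among the 15762 genes that passed the filter on low counts. Their RNA was measured in 18 RNA-seq libraries made from sorted cardiac cells that carry Thy1, a membrane protein found on many fibroblasts of the heart. The labels write this population as Thy1+ HE or Thy1+HE- without spelling out HE. Mice of 3 inbred strains, KK/HlJ, C3H/HeJ and C57BL/6, received isoproterenol (ISO), which stimulates beta-adrenergic receptors, or saline (sham) from implanted pumps. Hearts of ISO mice were taken at day 14 or day 21, and sham labels name no day, so both days were set against the same sham libraries of a strain. Strain and condition make 9 groups, with 2 libraries in each. Nothing in the labels tells separate animals from pools or gives an age, so each p-value reflects the spread of these libraries only, which may be technical.

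Small leucine-rich proteoglycans are secreted proteins whose core is a curved stack of leucine-rich repeats, and most carry chains of chondroitin or dermatan sulfate, or of keratan sulfate. In connective tissue they bind collagen fibrils and set fibril diameter and spacing, and they bind growth factors such as transforming growth factor beta. In the heart they are made mainly by fibroblasts, and decorin and biglycan released from the matrix also act on receptors at the cell surface.

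Total counts ran from 7230741 to 26280685 per library. All 10 fibroblast markers listed were detected, and their summed level was 80068 to 121548 CPM (counts scaled to equal library size, edgeR's TMM) in ISO libraries and 84516 to 119403 CPM in sham libraries. The largest part of this sum was Gsn alone, at 55180 to 97979 CPM over the 18 libraries. Lymphocyte markers summed to at most 1.11 CPM, with Cd3d at 0 in every library. Macrophage and monocyte markers, 7 of 8 detected with Itgam at 0, summed to 3.80 to 191 CPM in ISO libraries with a median of 20.8, highest in C3H/HeJ ISO day 21 replicate 1, and to 5.43 to 19.0 CPM in sham libraries with a median of 11.0. Libraries that correlated least with the others over all tested genes were replicate 1 of KK/HlJ ISO day 14 (median r = 0.811), of C3H/HeJ sham (0.840), of KK/HlJ sham (0.845) and of KK/HlJ ISO day 21 (0.847). The ISO labels were checked on Postn, which encodes periostin, a matrix protein of activated fibroblasts. Postn was 732 to 2373 CPM in ISO libraries and 237 to 448 CPM in sham libraries, with a log2 fold change of 2.17 ± 0.21 (SE) over both days (adjusted p = 1.49e-05, edgeR's quasi-likelihood test with Benjamini-Hochberg adjustment).

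Decorin (Dcn) had the highest level of the family in these cells. Its transcript averaged 11437 CPM and ranked 2 among all tested genes, and it held 0.648 to 1.498% of a library's reads. Biglycan (Bgn) ranked 7 with 5329 CPM, and lumican (Lum) ranked 23 with 3148 CPM. Together the 9 genes held 1.72 to 3.02% of all reads. To compare genes, CPM were divided by the length of each gene's merged exons in kilobases. On that scale Dcn averaged 1959 ± 395 CPM per kb over the 18 libraries (SD), Lum 1286 ± 364, Bgn 874 ± 212 and Prelp 332 ± 93.7. Osteoglycin (Ogn) averaged 263 ± 192 CPM per kb, asporin (Aspn) 185 ± 159, fibromodulin (Fmod) 45.6 ± 16.6, Ecm2 33.0 ± 11.5 and podocan (Podn) 26.2 ± 13.0. The order from Dcn through Lum and Bgn to Prelp was held in nearly every library: Dcn stood above Lum in 18 of 18, Lum above Bgn in 17 of 18 and Bgn above Prelp in 18 of 18. Further down, Prelp stood above Ogn in 13 of 18 libraries, Fmod above Ecm2 in 12 of 18 and Ecm2 above Podn in 13 of 18, so those neighbours were not separated by the spread between libraries. Dividing by the longest transcript in place of the merged exons put Bgn above Lum, with 1999 and 1286 CPM per kb, and kept the other 7 ranks.

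**Figure D1:**
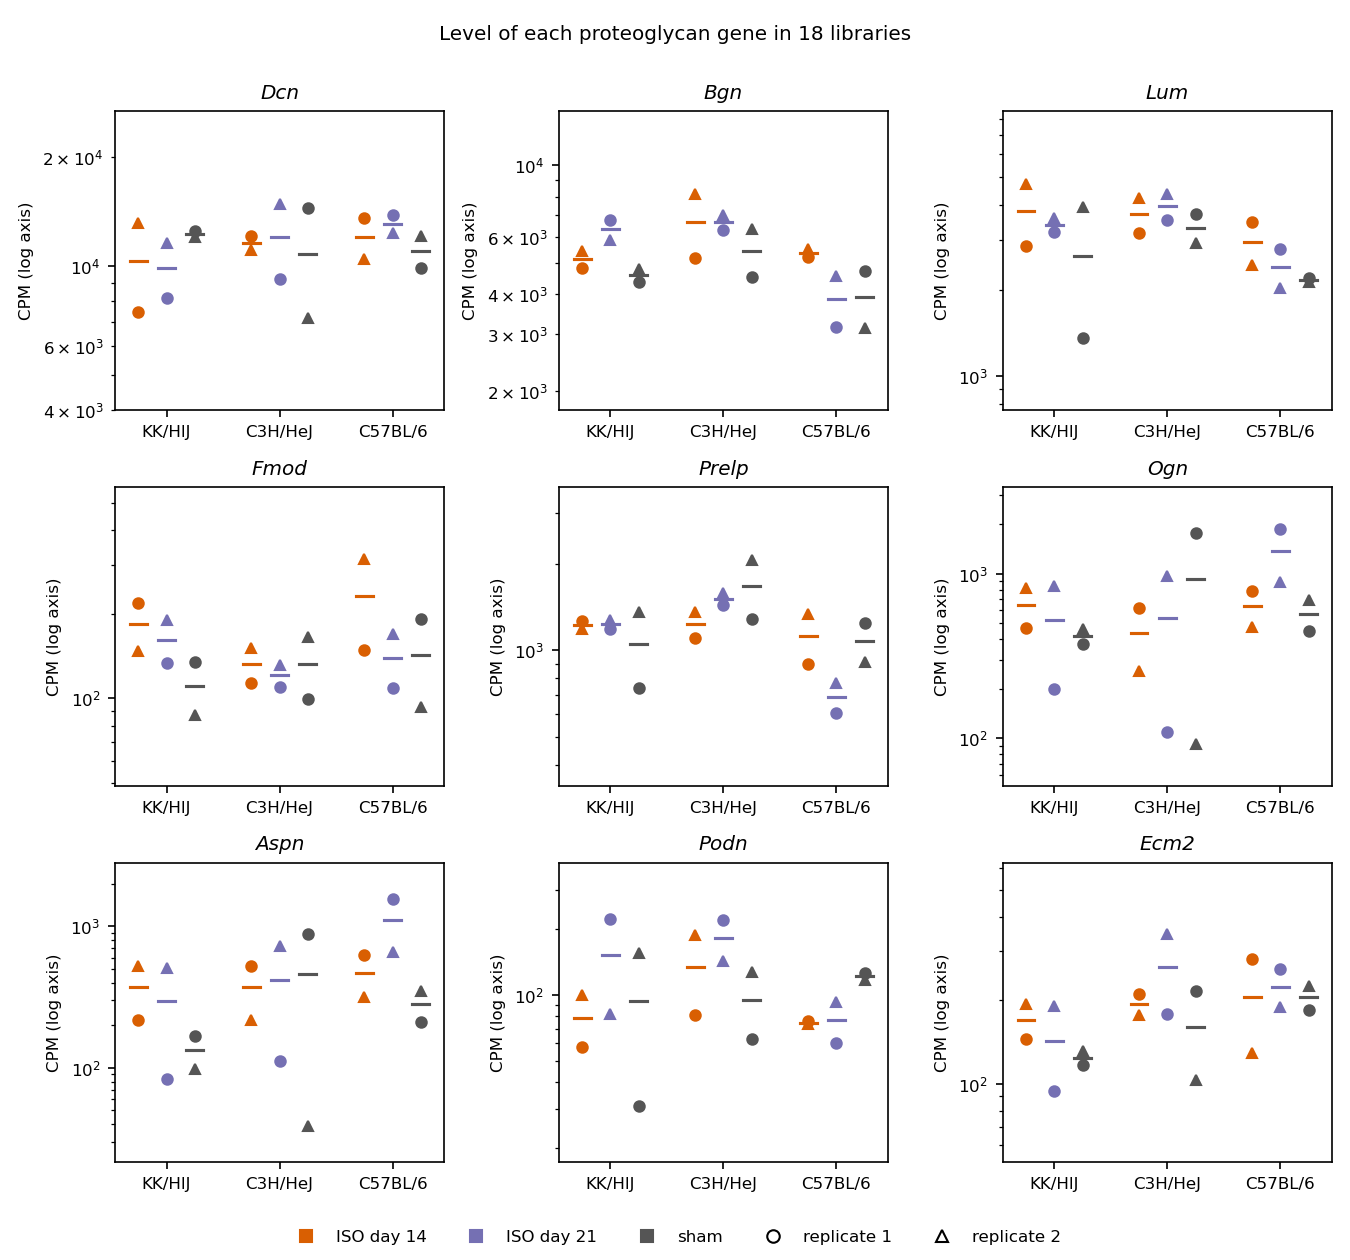
Level of each of the 9 genes in 18 libraries, as CPM on a log axis, by strain (KK/HlJ, C3H/HeJ, C57BL/6) and condition. Each point is 1 library, circles are replicate 1, triangles are replicate 2, and the bars are the means of 2 libraries. Dcn spans 2.07-fold over all libraries while Aspn spans 40.0-fold, with the highest and lowest Aspn values in C57BL/6 ISO day 21 and C3H/HeJ sham.

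The genes lie in family clusters of the mouse genome (build mm10, GENCODE M21, all protein coding). Ecm2 (ENSMUSG00000043631, chr13:49504810-49532789), Aspn (ENSMUSG00000021388, chr13:49544443-49567565) and Ogn (ENSMUSG00000021390, chr13:49608046-49624501) lie side by side on the plus strand of chromosome 13, with Omd, the gene of osteomodulin, between Aspn and Ogn. Dcn (ENSMUSG00000019929, chr10:97479609-97518143) and Lum (ENSMUSG00000036446, chr10:97565128-97572703) lie on chromosome 10 beside Kera and Epyc, which encode the cornea proteoglycan keratocan and the cartilage proteoglycan epiphycan. Prelp (ENSMUSG00000041577, chr1:133910304-133921414) and Fmod (ENSMUSG00000041559, chr1:134037254-134048277) lie on chromosome 1, Podn (ENSMUSG00000028600, chr4:108014791-108096445) on chromosome 4 and Bgn (ENSMUSG00000031375, chrX:73483602-73495933) on the X chromosome. Neighbours did not share a level: Omd averaged 20.7 CPM, against 435 CPM for Aspn and 675 CPM for Ogn on its sides, and Kera averaged 3.73 CPM and Epyc 23.7 CPM beside Dcn and Lum. Several members overlap another gene, and reads cannot be assigned to a strand here because the counter's setting is not given in the sources used here. Cenpp runs over Ecm2, Aspn and Ogn on the opposite strand at a mean of 0.776 CPM, and Gm15851 lies antisense to Prelp at 1.51 CPM. Scp2 overlaps Podn on the same strand at 33.5 CPM, and Podn itself averaged 112 CPM, so its counts are uncertain.

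The promoter windows of Aspn, Ogn and Ecm2 are shown because their levels moved together across libraries, and those of Bgn and Prelp because they were a second such pair and had the lowest p-values between strains. Each window covers 250 bases before and 50 bases after the transcription start in RefSeq (GRCm38.p6), read 5′ to 3′ on the gene's strand, and capitals mark matches to the motifs searched.
Aspn (chr13:49544193-49544492, plus strand): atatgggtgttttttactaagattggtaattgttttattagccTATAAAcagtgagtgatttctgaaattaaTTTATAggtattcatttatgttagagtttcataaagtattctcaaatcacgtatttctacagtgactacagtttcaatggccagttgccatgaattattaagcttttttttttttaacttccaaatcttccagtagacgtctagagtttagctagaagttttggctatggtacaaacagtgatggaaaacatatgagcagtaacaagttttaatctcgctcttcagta
Ogn (chr13:49607765-49608064, plus strand): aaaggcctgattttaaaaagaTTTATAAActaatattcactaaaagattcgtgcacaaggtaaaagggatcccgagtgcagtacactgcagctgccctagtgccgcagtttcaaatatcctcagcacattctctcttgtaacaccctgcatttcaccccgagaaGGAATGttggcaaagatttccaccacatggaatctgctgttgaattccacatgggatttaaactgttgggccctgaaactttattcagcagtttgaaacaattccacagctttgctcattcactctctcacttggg
Ecm2 (chr13:49504560-49504859, plus strand): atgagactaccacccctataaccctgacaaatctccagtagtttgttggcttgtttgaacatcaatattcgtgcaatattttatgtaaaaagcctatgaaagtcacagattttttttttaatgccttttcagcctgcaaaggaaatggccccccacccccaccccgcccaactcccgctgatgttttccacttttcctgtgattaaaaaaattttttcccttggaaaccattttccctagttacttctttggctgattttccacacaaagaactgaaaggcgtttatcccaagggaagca
Bgn (chrX:73483351-73483650, plus strand): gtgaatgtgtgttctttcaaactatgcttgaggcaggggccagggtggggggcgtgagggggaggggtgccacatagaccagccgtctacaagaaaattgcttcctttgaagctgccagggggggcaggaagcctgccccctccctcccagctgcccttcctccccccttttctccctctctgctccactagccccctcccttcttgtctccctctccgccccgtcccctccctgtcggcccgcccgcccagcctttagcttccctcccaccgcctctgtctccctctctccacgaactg
Prelp (chr1:133921352-133921651, minus strand): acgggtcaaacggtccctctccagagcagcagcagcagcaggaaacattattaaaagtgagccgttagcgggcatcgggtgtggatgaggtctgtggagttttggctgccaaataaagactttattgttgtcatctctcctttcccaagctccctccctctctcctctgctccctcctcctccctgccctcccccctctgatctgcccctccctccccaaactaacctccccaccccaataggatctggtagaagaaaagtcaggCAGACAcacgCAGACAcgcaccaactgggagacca
The motifs were searched by their letters alone, at any position of the window and on both strands, and compared with all 32851 windows in the table. Whether any match is a working site was not tested. The TATA box was searched as TATAAA and occurs in 13.6% of the windows. The site of AP-1 factors was searched as TGANTCA and occurs in 7.81%, and the cAMP response element was searched as TGACGTCA and occurs in 1.79%. The site of TEAD factors was searched as CATTCC and occurs in 14.7%, and that of SMAD factors as CAGACA and occurs in 21.0%. Aspn held 2 matches to the letters of the TATA box, with first bases far before the start, at positions -207 and -178 relative to it. Ogn held 2 overlapping matches to these letters, also far before the start, at positions -229 and -227, and 1 TEAD match at position -86. Prelp held 2 SMAD matches after the start, at positions 16 and 26, and the windows of Ecm2 and Bgn held none of these motifs. GC content of the windows was 31.0% for Aspn, 42.3% for Ogn and 41.0% for Ecm2, against 63.7% for Bgn and 55.3% for Prelp, where the median of all windows was 52.7%. The windows of 7 of the 9 genes were in the table, and those of Dcn and Lum were not used here.

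The first question was whether ISO changed these genes. None of the 9 passed the test: 0 of 9 at day 14, 0 of 9 at day 21 and 0 of 9 over both days, each as the mean over the 3 strains (edgeR's quasi-likelihood test, adjusted p under 0.05). Few genes passed at all, 0.0381% of tested genes at day 14, 0.0444% at day 21 and 0.0571% over both days, so a count of 0 of 9 lies at the background. Without the 4 libraries named above, which leaves C3H/HeJ sham and the KK/HlJ groups with 1 library each, assumed to vary like the others, 2 of 9 passed in each of the 3 comparisons, Aspn and Ogn. In that fit 3.38% of tested genes passed at day 14, 3.18% at day 21 and 4.36% over both days. The only C3H/HeJ sham library kept there, replicate 2, had the lowest Aspn and Ogn of all 18 libraries. With all 18 libraries and at an unadjusted p under 0.05, 0 of 9 passed in each of the 3 comparisons with edgeR, DESeq2 and limma on log2 CPM. There limma voom gave 1 of 9 (Lum) at day 14 and over both days. In edgeR 5.51% of all tested genes did so at day 14, 5.09% at day 21 and 6.69% over both days. The median log2 fold change of the 9 genes was 0.24 at day 14, 0.26 at day 21 and 0.28 over both days, where the median of all tested genes was 0.02, 0.03 and 0.03. In counts simulated for the day 14 comparison over 15762 genes, the test recovered 4% of genes changed 1.5-fold, 10% of those changed 2-fold, 52% of those changed 4-fold and 48% of those changed 8-fold. The changed genes were drawn from all tested genes, whose median SD of log2 CPM within groups was 0.95. Among the members that SD ran from 0.28 for Bgn to 1.51 for Aspn, so these rates do not give the power for the 9 genes. In bulk libraries fewer cells of a type and less RNA per cell cannot be told apart.

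Decorin, the collagen-binding proteoglycan of the resting interstitium, had the value nearest 0 of the family under ISO. It averaged 11293 ± 2218 CPM at ISO day 14 and 11663 ± 2602 CPM at ISO day 21, and 11354 ± 2515 CPM in sham libraries (SD, n = 6 each). The log2 fold change over both days was 0.01 ± 0.17 (SE), with a 95% interval of -0.35 to 0.37, that is, 0.786-fold to 1.29-fold.

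Biglycan, a close relative of decorin that also signals through Toll-like receptors when it is released, was the most one-sided of the 9. In KK/HlJ it was 4816 and 5421 CPM at ISO day 14 and 6795 and 5894 CPM at ISO day 21, against 4346 and 4784 CPM in sham. In C3H/HeJ it was 5182 and 8182 CPM at ISO day 14 and 6329 and 7017 CPM at ISO day 21, against 4497 and 6375 CPM in sham. In C57BL/6 it was 5207 and 5519 CPM at ISO day 14 and 3162 and 4547 CPM at ISO day 21, against 4706 and 3133 CPM in sham. Against the pair of sham libraries of the same strain, 8 of the 12 ISO libraries lay above both and 0 below both. At least 8 above and 0 below was met by 1.47% of tested genes. This cut was set at Bgn's own count, and Bgn was the most one-sided of the 9, so the share is no p-value. All 4 KK/HlJ ISO libraries lay above both KK/HlJ sham libraries, whereas C57BL/6 ISO day 21 overlapped its sham. The log2 fold change was 0.31 ± 0.18 at day 14, 0.25 ± 0.18 at day 21 and 0.28 ± 0.16 over both days (SE). Its adjusted p over both days was 0.801, and an exact permutation test of this gene alone within strains gave p = 0.0613 (two-sided, 3375 arrangements).

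Lumican and fibromodulin, keratan sulfate proteoglycans that bind the same region of collagen fibrils, had values above 0 at both days. Lum averaged 3484 ± 850 CPM at ISO day 14 and 3250 ± 783 CPM at ISO day 21, against 2709 ± 991 CPM in sham (SD, n = 6 each). Against the same strain's sham pair, 6 of the 12 ISO libraries lay above both and 1 below both. The log2 fold change of Lum was 0.38 ± 0.22 at day 14, 0.26 ± 0.22 at day 21 and 0.32 ± 0.19 over both days (SE; adjusted p = 0.837 over both days). Fmod averaged 183 ± 73.8 CPM at ISO day 14 and 141 ± 32.6 CPM at ISO day 21, against 129 ± 43.0 CPM in sham. Its log2 fold change was 0.48 ± 0.25 at day 14 and 0.13 ± 0.25 at day 21 (SE), and its day 14 value was the lowest p of the family in that comparison (adjusted p = 0.904, edgeR). The third member of this class, Prelp, a proteoglycan that anchors basement membranes to connective tissue, gave -0.05 ± 0.19 at day 14 and -0.19 ± 0.19 at day 21.

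Asporin, a class I member that carries a run of aspartates and lacks the usual chain attachment, had the largest ISO value of the 9 and the widest error. In KK/HlJ it was 217 and 523 CPM at ISO day 14 and 83.8 and 506 CPM at ISO day 21, against 168 and 97.5 CPM in sham. In C3H/HeJ it was 527 and 218 CPM at ISO day 14 and 112 and 722 CPM at ISO day 21, against 886 and 38.9 CPM in sham. In C57BL/6 it was 628 and 314 CPM at ISO day 14 and 1557 and 662 CPM at ISO day 21, against 211 and 350 CPM in sham. The groups of C57BL/6 ISO day 21 and KK/HlJ ISO day 14 lay clear of their shams, while the C3H/HeJ sham pair spanned every C3H/HeJ ISO library. The log2 fold change over both days was 0.82 ± 0.70 (SE), with an interval of -0.74 to 2.38 and an adjusted p of 0.990, and an exact permutation test of this gene alone within strains gave p = 0.130 (two-sided). Without the 4 libraries that correlate least it was 2.37, and without C3H/HeJ sham replicate 1 alone it was 2.00, the highest of the 18 values that each leave out 1 library, with 0.49 the lowest. Offsets for transcript length and GC content, fitted in each library, gave 0.80 (adjusted p = 0.899). It passed the edgeR test in several fits that leave out libraries or the filter on low counts. In all of these the spread was taken from a trend over all genes, without the gene's own. It passed in no fit of limma on log2 CPM, which moves each gene's spread toward such a trend by an amount not recorded here.

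Osteoglycin, the class III member also known as mimecan, showed the same scatter without a common direction. In KK/HlJ it was 469 and 821 CPM at ISO day 14 and 199 and 842 CPM at ISO day 21, against 377 and 462 CPM in sham. In C3H/HeJ it was 619 and 256 CPM at ISO day 14 and 110 and 966 CPM at ISO day 21, against 1760 and 91.8 CPM in sham. In C57BL/6 it was 789 and 478 CPM at ISO day 14 and 1874 and 887 CPM at ISO day 21, against 450 and 695 CPM in sham. The C3H/HeJ sham replicates differed 19.2-fold, more than any ISO group from its sham. Its log2 fold change over both days was 0.08 ± 0.63 (SE), which is 0.395-fold to 2.83-fold by its 95% interval. It became 1.32 without the 4 libraries that correlate least. That fit keeps replicate 2 as the only C3H/HeJ sham library, which had the lowest Ogn of all libraries (91.8 CPM), so the value leans on it.

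Ecm2 had values above 0 at both days and Podn values of both signs. Ecm2, a leucine-rich matrix protein related to this family, averaged 189 ± 54.2 CPM at ISO day 14 and 210 ± 85.8 CPM at ISO day 21, against 163 ± 52.8 CPM in sham (SD, n = 6 each), and its log2 fold change was 0.24 ± 0.25 at day 14, 0.35 ± 0.25 at day 21 and 0.30 ± 0.22 over both days (SE). With the offsets for length and GC content the value over both days was 0.05. Podn, a class V member, averaged 95.6 ± 46.8 CPM at ISO day 14 and 136 ± 70.3 CPM at ISO day 21, against 103 ± 46.6 CPM in sham. Its log2 fold change over both days was 0.08 ± 0.33 (SE), and -0.39 without the 4 libraries that correlate least. Both C57BL/6 ISO groups lay below their sham, with 75.6 and 73.3 CPM at ISO day 14 and 60.4 and 93.0 CPM at ISO day 21, against 126 and 117 CPM in C57BL/6 sham. Both C3H/HeJ ISO day 21 libraries lay above theirs, with 218 and 143 CPM against 62.7 and 127 CPM in C3H/HeJ sham. The difference between the day 21 responses of C3H/HeJ and C57BL/6 was 1.59 ± 0.93 on the log2 scale (SE; adjusted p = 0.806, edgeR).

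**Figure D2:**
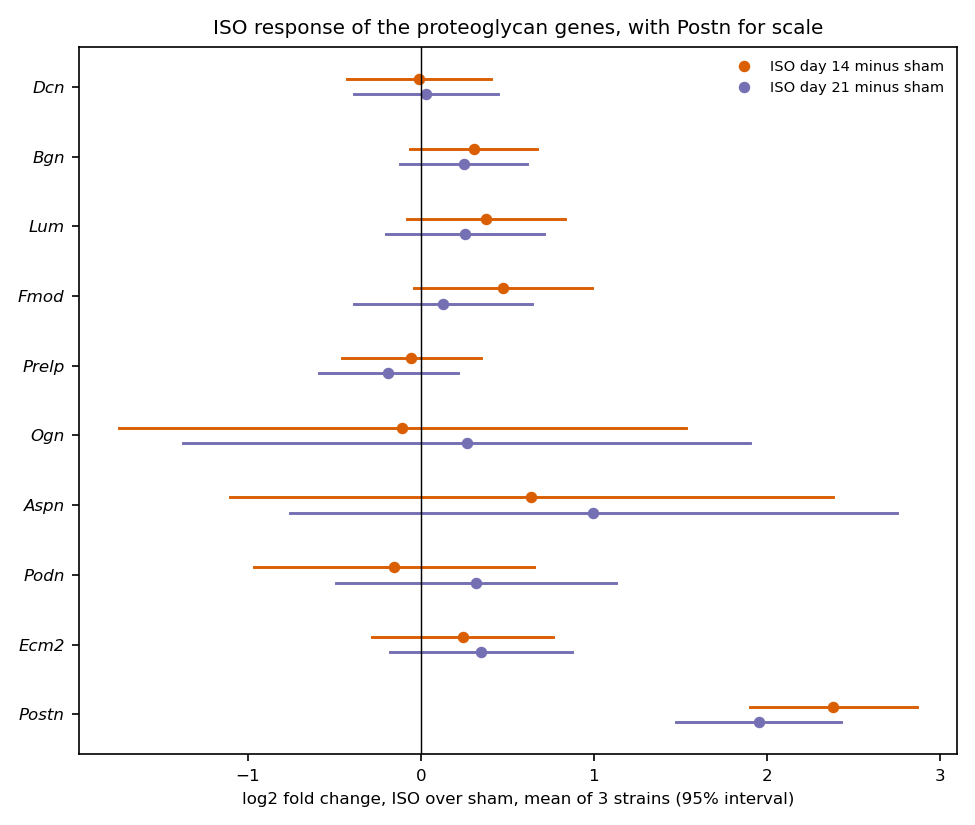
Log2 fold change of ISO over sham as the mean of 3 strains at day 14 and day 21, with 95% intervals from the edgeR fit, for the 9 genes and for Postn. Every interval of the 9 genes crosses 0, the intervals of Aspn and Ogn are the widest, and Postn stands at 2.38 at day 14 and 1.95 at day 21.

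Within single strains, 0 of 54 tests of a member passed, 6 comparisons of 9 genes each, and 0 of 54 reached an unadjusted p under 0.05 with edgeR, DESeq2 or limma on log2 CPM (1 of 54 with limma voom). Of all tested genes, 0.0127% passed in C3H/HeJ at day 14 and 0.019% in KK/HlJ at day 21, and 0% in the other 4 comparisons. An unadjusted p under 0.05 in edgeR was reached by 1.10% (C57BL/6 at day 14) to 5.78% (C3H/HeJ at day 21) of them. By position alone, 5 of 9 members (Bgn, Fmod, Ogn, Aspn and Ecm2) had both KK/HlJ ISO day 14 libraries above both sham libraries, where 12.8% of tested genes did, and 0 of 9 had both below (10.1%). KK/HlJ at day 21 had 1 of 9 above (Bgn; 14.4% of tested genes) and 1 of 9 below (Dcn; 11.1%). C3H/HeJ had 0 of 9 above and 0 of 9 below at day 14 (19% and 15% of tested genes), and 1 of 9 above (Podn; 18.5%) and 0 of 9 below (16.6%) at day 21. C57BL/6 had 2 of 9 above at day 14 (Bgn and Lum; 12%) and 1 of 9 below (Podn; 19.1%), and 3 of 9 above at day 21 (Dcn, Ogn and Aspn; 16.3%) and 2 of 9 below (Prelp and Podn; 20.7%). Over the 3 strains together, 0 of 9 members had every ISO library above the sham pair of its strain at day 14 (0.692% of tested genes), at day 21 (0.285%) or on both days (0.102%), and 0 of 9 had every one below (0.711% at day 14, 0.45% at day 21 and 0.0825% on both days). No difference of the ISO response between strains passed for a member (0 of 54 tests, and 0 of 54 at an unadjusted p under 0.05 with edgeR, DESeq2 and limma on log2 CPM, 1 with limma voom), and 0% of tested genes passed there. In edgeR 1.71% to 6.45% of tested genes had an unadjusted p under 0.05 there, by strain pair and day.

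Day 21 was also set against day 14 among ISO libraries. As the mean over 3 strains the 9 log2 differences ran from -0.35 (Fmod) to 0.47 (Podn), with a median of 0.04, and 0 of 36 tests passed over the strains and their mean, as did 0% of all tested genes. The only member with an unadjusted p under 0.05 was Prelp in C57BL/6, with 607 and 770 CPM at day 21 and 898 and 1338 CPM at day 14. Its log2 difference was -0.70 ± 0.34 (SE; adjusted p = 0.903, edgeR), and DESeq2, limma on log2 CPM and limma voom each also gave 1 of 36 under that p. In edgeR 3.44% of all tested genes had such a p in C57BL/6, 0.419% in C3H/HeJ, 1.05% in KK/HlJ and 1.86% for the mean.

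The second question was how the strains differ. Over all conditions, with 6 libraries a strain, 0 of 27 tests of a member passed in edgeR, and 4 of 27 had an unadjusted p under 0.05. These were 3 of 9 for C3H/HeJ minus C57BL/6 (against 8.29% of all tested genes), 1 of 9 for KK/HlJ minus C57BL/6 (5.81%) and 0 of 9 for KK/HlJ minus C3H/HeJ (6.30%). Of all tested genes, 0.647% passed for C3H/HeJ minus C57BL/6, 0.273% for KK/HlJ minus C57BL/6 and 0.406% for KK/HlJ minus C3H/HeJ. DESeq2 and limma on log2 CPM passed 0 of 27 as well, and limma voom with library weights passed 1 of 27 (Prelp, C3H/HeJ minus C57BL/6, where it passed 2.06% of tested genes). Without the 4 libraries that correlate least, 7 of 27 passed in edgeR, among them Prelp, Bgn and Podn for C3H/HeJ minus C57BL/6 at 0.72, 0.59 and 0.70, and the other 4 were of Aspn or Ogn. In that fit 6.78% of tested genes passed for C3H/HeJ minus C57BL/6, 2.18% for KK/HlJ minus C57BL/6 and 2.63% for KK/HlJ minus C3H/HeJ. Among sham libraries alone 0 of 27 passed, where 0.102% of tested genes did for C3H/HeJ minus C57BL/6, 0.0508% for KK/HlJ minus C57BL/6 and 0.152% for KK/HlJ minus C3H/HeJ. There 0 of 27 had an unadjusted p under 0.05 in edgeR and DESeq2, and 1 of 27 in limma on log2 CPM and in limma voom. In edgeR 4.89% of tested genes had such a p for C3H/HeJ minus C57BL/6, 3.96% for KK/HlJ minus C57BL/6 and 6.33% for KK/HlJ minus C3H/HeJ. No member had all 6 libraries of one strain above or below all 6 of another. Of tested genes, 1.28% lay wholly above and 0.787% wholly below for C3H/HeJ against C57BL/6, 0.349% and 0.4% for KK/HlJ against C57BL/6, and 0.305% and 0.622% for KK/HlJ against C3H/HeJ.

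Of the 4 low p-values, 3 belonged to C3H/HeJ against C57BL/6 and to Prelp, Bgn and Lum. Prelp was 1101 to 2052 CPM in C3H/HeJ with a median of 1402, and 607 to 1338 CPM in C57BL/6 with a median of 905. At ISO day 14 Prelp was 1101 and 1362 CPM in C3H/HeJ, against 898 and 1338 CPM in C57BL/6. At ISO day 21 it was 1443 and 1577 CPM in C3H/HeJ, against 607 and 770 CPM in C57BL/6. In sham hearts it was 1285 and 2052 CPM in C3H/HeJ, against 1243 and 912 CPM in C57BL/6. The libraries of the strains were thus apart at day 21, barely apart in sham (1285 against 1243 CPM) and overlapped at day 14. With 2 libraries a side, and the share of all tested genes not computed, this is a description only. The log2 difference was 0.63 ± 0.19 (SE), a 1.55-fold higher mean in C3H/HeJ (p = 0.00353, adjusted p = 0.216, edgeR), and an exact permutation test of this gene alone within conditions gave p = 0.0278 (two-sided, 216 arrangements, smallest possible 0.00926). Leaving out C3H/HeJ sham replicate 1 gave 0.72 with an adjusted p of 0.0352 in a fit that passed 1.24% of tested genes, limma voom gave 0.65 with 0.0260, and the offsets for length and GC content gave 0.52 with 0.579.

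Biglycan stood at 4497 to 8182 CPM in C3H/HeJ with a median of 6352, and at 3133 to 5519 CPM in C57BL/6 with a median of 4626. The log2 difference was 0.53 ± 0.18 (SE; 1.44-fold; p = 0.00707, adjusted p = 0.309, edgeR), and the exact permutation test of this gene alone gave p = 0.0556 (two-sided). Lumican was 2927 to 4350 CPM in C3H/HeJ with a median of 3627, and 2042 to 3468 CPM in C57BL/6 with a median of 2331. The difference was 0.55 ± 0.22 (SE; 1.46-fold; p = 0.0213, adjusted p = 0.493), and the exact permutation test gave p = 0.0185 (two-sided). The ranges of both genes overlapped between these strains, whose ISO day 21 libraries were the farthest apart, with Lum at 3537 and 4350 CPM in C3H/HeJ and 2798 and 2042 CPM in C57BL/6.

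KK/HlJ lay between the other two strains in mean level for Bgn, Lum and Prelp, with 5343 ± 895, 3274 ± 1134 and 1170 ± 220 CPM (SD, n = 6). Its log2 differences from C57BL/6 were 0.29 ± 0.18 for Bgn, 0.37 ± 0.22 for Lum and 0.31 ± 0.19 for Prelp (SE), none with an unadjusted p under 0.05. With the offsets for length and GC content the same differences were 0.56 for Bgn, 0.98 for Lum and 0.47 for Prelp, and that of Lum had an adjusted p of 0.0860. Under these offsets Lum was 0.88 higher in C3H/HeJ than in C57BL/6 (adjusted p = 0.133) and 0.10 higher in KK/HlJ than in C3H/HeJ. The fourth low p-value was that of Ecm2, at 93.9 to 194 CPM in KK/HlJ with a median of 138, and at 129 to 281 CPM in C57BL/6 with a median of 208. Its log2 difference was -0.55 ± 0.25 (SE; adjusted p = 0.814), and 0.07 with the offsets. Aspn in KK/HlJ was 83.8 to 523 CPM with a median of 193, against 211 to 1557 CPM with a median of 489 in C57BL/6, a log2 difference of -1.11 ± 0.78 (SE; exact permutation p = 0.0463, two-sided, and not passed in edgeR), and -0.50 with the offsets. With the conditions averaged, the log2 differences of Dcn between strains were at most 0.16 in size, with intervals within -0.57 to 0.35. Their sign depended on the scaling: for KK/HlJ minus C57BL/6 the value was -0.16, and 0.51 with the offsets (adjusted p = 0.480), and for C3H/HeJ minus C57BL/6 it was -0.07, and 0.30 with the offsets.

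**Figure D3:**
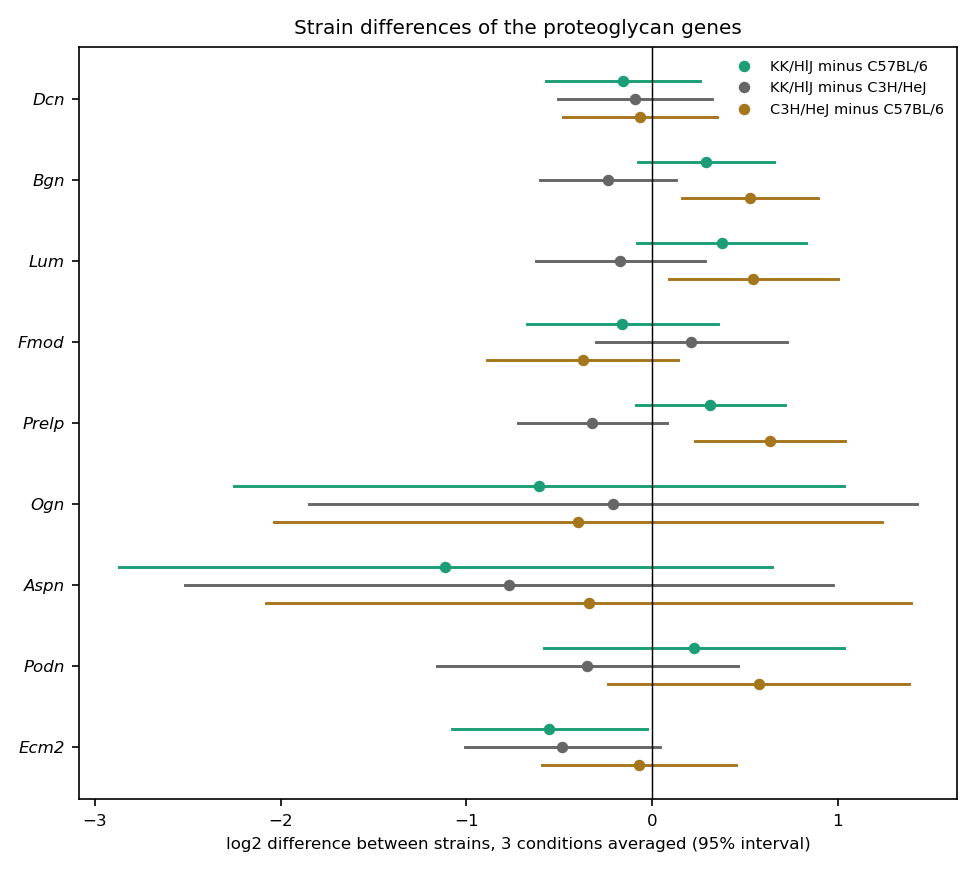
Log2 differences between strains for the 9 genes, with the 3 conditions averaged, and 95% intervals from the edgeR fit. Prelp, Bgn and Lum lie right of 0 for C3H/HeJ minus C57BL/6 with intervals that do not reach 0, Ecm2 lies left of 0 for KK/HlJ minus C57BL/6, and 0 of the 27 differences passed after adjustment over all genes.

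The members differed most in how far replicates of 1 group spread. The SD of log2 CPM within groups was 1.51 for Aspn and 1.43 for Ogn, against 0.28 for Bgn, 0.33 for Prelp, 0.39 for Dcn, 0.45 for Lum, 0.50 for Fmod, 0.52 for Ecm2 and 0.79 for Podn. Among the 3530 genes with a mean of at least 50 CPM the median was 0.40, and only 0.510% had a larger SD than Aspn and 0.595% a larger one than Ogn. Over all libraries Aspn spanned 40.0-fold and Ogn 20.4-fold, where Podn spanned 7.13-fold and the other 6 genes 2.07-fold to 3.71-fold. The highest values of both lay in C57BL/6 ISO day 21 replicate 1, with 1557 CPM of Aspn and 1874 CPM of Ogn. The lowest lay in C3H/HeJ sham replicate 2, with 38.9 CPM of Aspn and 91.8 CPM of Ogn.

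This spread moved with the base composition of the libraries. Each library was given a GC slope, the change of log2 level, relative to the mean of all libraries, for each 10 points of transcript GC content over all genes. A negative slope means that GC-poor transcripts read higher in that library. The slope ran from -0.58 in C57BL/6 ISO day 21 replicate 1 to 0.62 in C3H/HeJ sham replicate 2, the same libraries that hold the highest and lowest Aspn and Ogn. Transcript GC content was 34.3% for Aspn, 36.3% for Ogn, 37.4% for Dcn, 39.1% for Ecm2 and 41.9% for Lum, and 51.2% for Bgn, 53.7% for Fmod, 53.8% for Prelp and 56.3% for Podn. Across the 18 libraries the correlation of log2 CPM with the slope was -0.91 for Aspn, -0.88 for Ogn, -0.83 for Dcn and -0.81 for Ecm2. It was -0.16 for Lum, 0.16 for Fmod, 0.34 for Podn, 0.45 for Bgn and 0.56 for Prelp. Only 0.0761% of tested genes had a more negative correlation than Aspn and 0.197% a more negative one than Ogn. These correlations describe libraries that share depth and composition and carry no test. With offsets for transcript length and GC content the SD within groups fell to 0.80 for Aspn, 0.86 for Ogn and 0.40 for Ecm2. It rose to 0.46 for Dcn, 0.57 for Lum, 0.34 for Bgn and 0.51 for Fmod, from 0.39, 0.45, 0.28 and 0.50. For Prelp it went from 0.33 to 0.32 and for Podn from 0.79 to 0.77.

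**Figure D4:**
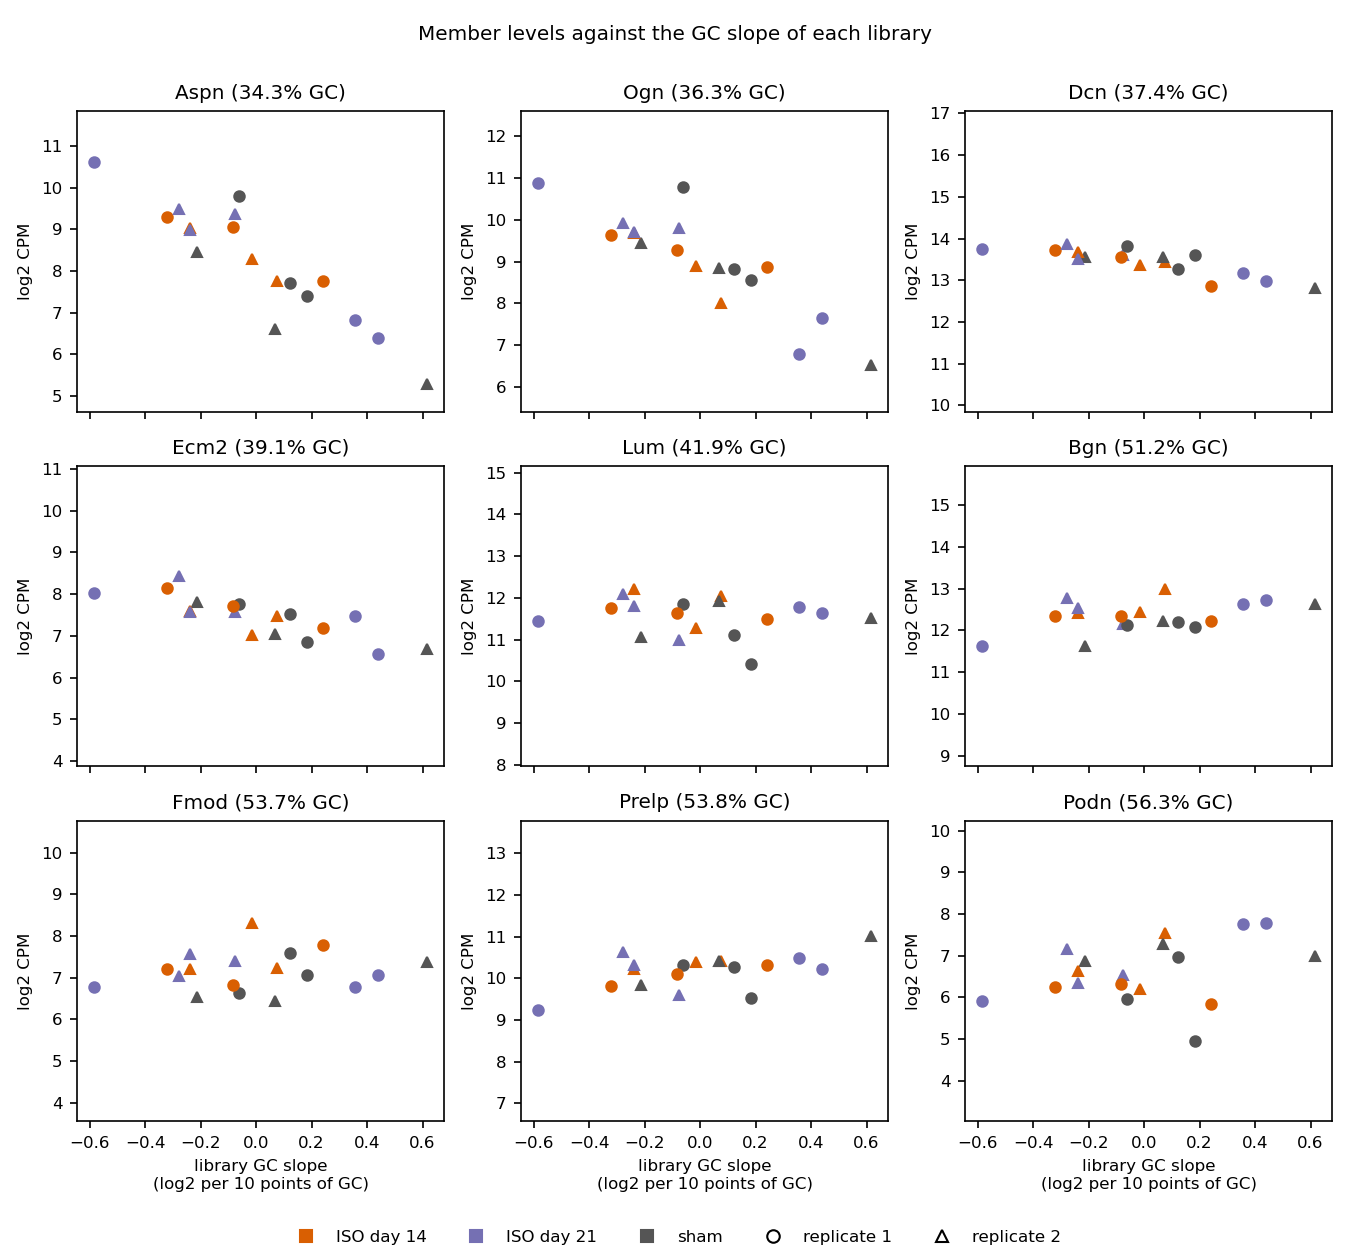
Log2 CPM of each gene against the GC slope of the library, 18 points a panel, coloured by condition with replicate 1 as circles and replicate 2 as triangles, and panels ordered by transcript GC content. Aspn, Ogn, Dcn and Ecm2 fall with the slope, with r of -0.91, -0.88, -0.83 and -0.81, while Fmod, Prelp, Podn, Bgn and Lum have r between -0.16 and 0.56.

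The slopes had different means by condition and strain, with ranges that overlapped, and no test was run. Over ISO libraries they were -0.06 ± 0.21 at day 14 and -0.06 ± 0.39 at day 21, against 0.12 ± 0.28 in sham (mean and SD, n = 6 each). By strain they were 0.08 ± 0.27 in KK/HlJ, 0.10 ± 0.33 in C3H/HeJ and -0.18 ± 0.25 in C57BL/6. Marker sums of other cell types were also set beside each other. Pericyte and smooth muscle markers, 10 of 10 detected, summed to 1181 to 5282 CPM in ISO libraries with a median of 1933, and to 1769 to 6404 CPM in sham libraries with a median of 2742. Schwann and glia markers, 7 of 7 detected, summed to 53.7 to 139 CPM in ISO libraries and to 98.8 to 141 CPM in sham libraries. Endothelial markers, 8 of 8 detected, summed to 181 to 907 CPM in ISO libraries, highest in C3H/HeJ ISO day 21 replicate 1, and to 130 to 464 CPM in sham libraries. Tek had the highest median of them, 209 CPM, with a range of 104 to 305 CPM. Cardiomyocyte markers, 8 of 8 detected, summed to 58.9 to 335 CPM in ISO libraries and to 98.6 to 238 CPM in sham libraries. The part of these cells in the values of the 9 genes was not tested.

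Aspn, Ogn, Dcn and Ecm2, the members of lowest GC content, varied together across libraries. Lum, next at 41.9% GC, had r from 0.05 (Ogn) to 0.31 (Ecm2) with them. Over 36 pairs of members, each across 18 libraries, 7 had a Benjamini-Hochberg adjusted permutation p under 0.05 for Pearson's r. The permutations shuffled all 18 libraries without regard to strain, condition or GC slope. The share of all gene pairs with such an r was not computed, so this count does not set the family apart from other genes. The closest pair was Ogn and Aspn, with r = 0.92 and rho = 0.94 (permutation p = 1e-05 for each, the smallest that the permutations can give, adjusted p = 0.00036), and 0.90 without the 2 libraries farthest from the median of Ogn. After removal of the group means r was 0.98, and with the offsets for length and GC content it was 0.74. For Aspn with Ecm2 r was 0.81 and rho 0.86 (permutation p = 7e-05 and 2e-05, adjusted p = 0.00126 and 0.00036), 0.76 without the 2 farthest libraries, and -0.02 with the offsets. For Dcn with Aspn r was 0.79 and rho 0.82 (adjusted permutation p = 0.00135 and 9e-04), 0.77 without the 2 farthest libraries, and -0.42 with the offsets. For Dcn with Ogn r was 0.79 and rho 0.80 (adjusted permutation p = 0.00135 and 9e-04), 0.83 without the 2 farthest libraries, and -0.20 with the offsets. The other 2 pairs were Dcn with Ecm2, at r = 0.72 and rho = 0.76 (adjusted permutation p = 0.00403 and 0.00246), 0.69 without the 2 farthest libraries and 0.58 with the offsets, and Ogn with Ecm2, at r = 0.68 and rho = 0.80 (adjusted permutation p = 0.0105 and 0.00115), 0.73 without the 2 farthest libraries and -0.09 with the offsets. The Ogn and Aspn pair thus kept a correlation over 0.7 under the offsets, and the links of Aspn with Ecm2 and Dcn did not.

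The seventh pair was Bgn and Prelp, which had r = 0.71 and rho = 0.66 (adjusted permutation p = 0.00618 and 0.0193), 0.57 without the 2 farthest libraries, 0.67 after removal of the group means and 0.76 with the offsets. With the offsets Lum had r = 0.80 with Bgn and 0.81 with Prelp. Without the offsets r was 0.54 and 0.52 and rho 0.59 and 0.56 (adjusted permutation p = 0.0597 and 0.0698 for r, 0.0452 and 0.0593 for rho), and after removal of the group means r was 0.08 and 0.29. Dcn and Bgn, the closest relatives by class, had r = -0.33 and rho = -0.38 (adjusted permutation p = 0.314 and 0.244) without the offsets and 0.67 with them, so the sign of their relation depended on the scaling.

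Among 9779 other genes of at least 5 CPM, the 2 most like each member were taken by Pearson's r of log2 CPM over the 18 libraries, as a description with no test. For Dcn these were Ppp3cb (r = 0.95) and Ywhae (0.93), for Ogn Stag2 (0.95) and Sept7 (0.94), for Aspn Cast (0.95) and Dynlt3 (0.94), and for Ecm2 Tmem30a (0.89) and Zfr (0.88). All of these have transcripts of 35.7% to 43.9% GC. For Bgn the closest was Col1a1 (r = 0.88), which encodes a chain of collagen I, at 58.9% GC, followed by Ptprf (0.87). For Prelp they were Glis2 (0.94) and Prrc2a (0.92), for Lum Pls3 (0.85) and Slc4a4 (0.85), for Fmod Sgsh (0.78) and Lamtor3 (0.74), and for Podn Rgmb (0.87) and Peli2 (0.87). With the offsets, r was 0.77 for Bgn with Col1a1, 0.83 for Ogn with Stag2, 0.82 for Aspn with Cast, 0.36 for Dcn with Ppp3cb and 0.34 for Ecm2 with Tmem30a.

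Genes that make, bind or cut these proteoglycans were taken as lists, and none of their members passed for ISO at day 14, at day 21 or over both days. Among matrix binding partners of the family, 16 of 16 tested genes had a value above 0 at day 14 and 10 of 16 at day 21, with medians of 0.53 and 0.36 on the log2 scale, and 8 of 16 had an unadjusted p under 0.05 at day 14, as did 5.51% of all tested genes. The lowest p-values were those of Col14a1, Fn1 and Col12a1. None of the 16 passed. Fn1, the gene of fibronectin, gave 1.14 ± 0.24 over both days (SE; adjusted p = 0.0845), and Col12a1, a collagen found on the surface of fibrils, gave 1.46 ± 0.31 (adjusted p = 0.0836). Col14a1, a collagen of the same class, gave 0.88 ± 0.19 (adjusted p = 0.0906). Col1a1 and Col1a2, the chains of collagen I to which decorin binds, gave 0.38 ± 0.17 and 0.54 ± 0.19 (adjusted p = 0.696 and 0.548).

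Enzymes that build chondroitin and dermatan sulfate chains had 12 of 21 tested genes above 0 over both days and a median of 0.08. Chst11, a chondroitin sulfotransferase, gave 0.94 ± 0.33 (SE; adjusted p = 0.534), and Chst7, another sulfotransferase, gave -0.71 ± 0.27 (adjusted p = 0.605). Enzymes of keratan sulfate had 4 of 6 above 0, with a median of 0.05, and proteases known to cut members of the family had 5 of 10, with a median of 0.01 and Htra1 lowest in p at -0.37 ± 0.16 (adjusted p = 0.706). Receptors and growth factors bound by the family had 19 of 24 above 0 and a median of 0.21, with Tgfb3 at 0.45 ± 0.17 (adjusted p = 0.602) and Cd44 at 0.52 ± 0.24 (adjusted p = 0.740). Tlr2 and Tlr4, receptors of soluble biglycan, averaged 16.5 and 35.1 CPM and gave 0.21 ± 0.64 and 0.08 ± 0.35. Both lie near 0 with wide errors. Of the rest of the family, 7 of 9 genes passed the filter on low counts, 5 of these 7 lay above 0 over both days, and Tsku, at 110 CPM the strongest of them, gave 0.35 ± 0.21 (adjusted p = 0.823). Nyx and Podnl1 did not pass that filter, with at most 9 and 6 counts in a library.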

How the data were processed

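Per the labels' protocols, stranded mRNA libraries (KAPA mRNA HyperPrep) gave single-end reads of 50 nt. FastQC, STAR 2.5.3a, edgeR and the mm10 build are named in the submitters' processing notes, with the counter, its strand setting and the annotation release not given in the sources used here. What the authors deposited are whole-number counts of reads for each Ensembl identifier, not normalized. The same build, from C57BL/6, served all strains, so reads with variants of the other strains may be lost.

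Of 53342 identifiers, 53237 matched GENCODE M21, and the 105 others hold 0.00159% of reads. CPM use edgeR's effective library sizes (TMM), and log2 CPM a prior count of 2. edgeR 4.0.16 (R 4.3.3; quasi-likelihood, robust) was fitted to all 18 libraries with 9 group terms, leaving 9 residual degrees of freedom, and p-values were adjusted (Benjamini-Hochberg) over 15762 genes in each of 25 comparisons, at a threshold of 0.05. SE and 95% intervals come from the F statistic. Exact permutation p-values shuffle labels within strain or condition for 1 gene. They were computed for each of the 9 genes, over both ISO days and for each pair of strains, and were not adjusted for the number of tests. The test was run on simulated data. Alternatives used DESeq2 1.42.0 and limma 3.58.1. The 9 genes and all lists were chosen with earlier results of these data known. Named genes were the 9 members, the 2 genes most like each, Postn, and up to 3 genes of each list with the lowest p, plus collagen I and Toll-like receptor genes, chosen after values were seen.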

Additional observations from a re-analysis of the deposited data

How the results depend on the processing

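No member passed for ISO or between strains with RLE scaling, a minimum mean of 5 CPM, only the groups compared, offsets for length and GC content, DESeq2 or limma on log2 CPM. Whether replicate numbers pair the libraries was not settled. Deviations of same-numbered libraries correlated from -0.144 to 0.163 over 36 pairs of groups, 9 of them over 0.1, with no reference for a shared batch. With the replicate number as a block 0 members passed in each family of comparisons. In these alternatives the share of all tested genes passing was not computed within strains, between days, between shams or for responses. Counts of members there therefore do not set them apart from other genes. The counts were 0 in each family and moved as follows. Without the 4 libraries that correlate least, 2 members passed for ISO at day 14, at day 21 and over both days, 8 tests within strains, 2 for day 21 against day 14, 4 between shams, 7 between strains and 2 for the difference of responses. Without the filter on low counts these were 1 at day 21, 1 over both days, 2 within strains, 1 between shams, 2 between strains and 2 for responses. Between strains, limma voom passed 1, and limma on log2 CPM without the 4 libraries, added after seeing the data, also 1, each time Prelp. With 1 library left out the counts ranged from 0 to 0 at day 14, 0 to 1 at day 21 and over both days, 0 to 3 within strains, 0 to 2 between days, 0 to 1 between shams and 0 to 3 between strains and for responses. All 93 calls of Aspn or Ogn came from the 11 edgeR fits, 9 with 1 library left out, in which the prior degrees of freedom became infinite, so that a gene's own spread no longer entered (0.558 for Aspn and 0.610 for Ogn in the fit reported). Of the other 6 calls, 4 were of Prelp. Those of Prelp, Bgn and Podn in edgeR without the 4 libraries also came from a fit with infinite prior degrees of freedom. That of Prelp without C3H/HeJ sham replicate 1 came from a fit with 649 for Prelp, against 13.1 in the fit reported, so its own spread entered little. Ogn reversed without the 4 libraries, to 1.07 for ISO day 14 and 1.29 for KK/HlJ minus C3H/HeJ. Podn, which passed for ISO neither there nor in the fit reported, changed sign without the 4 libraries, from 0.32 to -0.36 for ISO day 21 and from 0.08 to -0.39 over both days. Of 54 member fold changes, 28 kept their sign under every alternative run, and 55 of 648 values under the other alternatives and 64 of 702 with 1 library left out changed sign. Over all genes the calls for both ISO days, 9 as reported, ranged from 5 to 769 (769 without the 4 libraries, 97 with DESeq2 and without the filter, 15 with the block), and those for C3H/HeJ minus C57BL/6, 102 as reported, from 83 to 1195. The others ranged from 2 to 595 for ISO day 14 (6 as reported), 2 to 560 for ISO day 21 (7), 37 to 755 for KK/HlJ minus C57BL/6 (43) and 51 to 634 for KK/HlJ minus C3H/HeJ (64). The least deeply sequenced library had 7230741 counts, and every member had at least 357 counts in each library, so counting error was small beside the spread between replicates.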
